A study of Mus musculus with 2 samples.

Results

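Endothelial tip cells were studied in single-cell RNA sequencing of retinas from mouse pups at postnatal day 6. A barcode counted as a tip cell when it passed 4 limits in turn. It held at least 1000 UMIs (counted RNA molecules) and at least 500 genes, with 1 to 10% mitochondrial UMIs. Its summed level of 8 endothelial genes (Pecam1, Cdh5, Cldn5, Kdr, Flt1, Egfl7, Esam and Ramp2) was at least 2000 CPM (its UMIs scaled to the same total in every cell), with under 1000 CPM of the mural genes Rgs5, Kcnj8, Pdgfrb and Higd1b. It had under 200 CPM of the proliferation genes Mki67 and Top2a together, called non-cycling here. Its summed Esm1, Angpt2 and Kcne3 reached 300 CPM. The members were thus chosen by measured levels of these genes. By this rule 269 of 14047 barcodes were tip cells, 11 of 8739 in the control library and 258 of 5308 in the library of the endothelial knockout.

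The study asked how loss of Alk1, a receptor mutated in hereditary hemorrhagic telangiectasia, affects the retinal endothelium, and its title names overexpression of PIEZO1. The control pups carried the floxed receptor gene alone (Alk1f/f), and the knockout pups carried Alk1f/f with Cdh5 CreERT2, a tamoxifen-inducible recombinase driven by the promoter of the endothelial gene Cdh5. Alk1 ECKO stands for the second genotype below. Both groups were of the same age, the floxed alleles were common to both, and cells were enriched with beads against CD31, an endothelial surface protein. The sources used here do not give the time of induction, the number of pups pooled or the exons removed.

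Tip cells lead vascular sprouts. They extend filopodia toward VEGF, bear DLL4, which restrains neighbouring stalk cells through Notch, and secrete factors such as apelin and ANGPT2, and in the retina at this age they lie at the front of the vascular plexus that is still growing toward the periphery. ALK1, encoded by Acvrl1, transmits BMP9 and BMP10 signals that, with Notch, restrain sprouting.

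There was 1 library per genotype, so no test across replicates could be made. Every difference is one between pools of cells, and intervals are at 95% and cover counting error only. The 11 control tip cells held 241922 UMIs in all (3034 to 74810 per cell, median 19617), and the 258 Alk1 ECKO tip cells held 8728013 (median 22158.5). One control cell carried 30.9% of the control tip cell UMIs, so values without it are given for genes chosen by the naming rule of the methods and for lists where it moved them by over 1.5 times. No such values were computed for the other list members named below. The median mitochondrial share was 4.14% in control and 2.44% in Alk1 ECKO tip cells. Over all barcodes, 4.87% in control and 39.7% in Alk1 ECKO lay under 1% mitochondrial UMIs and were left out by the rule. The libraries shared 20 barcodes, and 0 of them were tip cells.

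Tip cells made up 4.66% of non-cycling endothelial cells in control (11 of 236, exact Clopper-Pearson interval 2.35 to 8.19) and 30.7% in Alk1 ECKO (258 of 841, 27.6 to 33.9). With 1 library per genotype the intervals cover the counting of cells and not the spread between animals. Since the rule itself is a level of 3 genes, the share describes how many cells carried those transcripts and is not a second finding about them. Cells that the rule left out for Mki67 and Top2a showed the same order. Of cycling endothelial cells, 9.47% in control (9 of 95, 4.42 to 17.2) and 32.1% in Alk1 ECKO (117 of 364, 27.4 to 37.2) reached 300 CPM of the 3 genes. Cycling cells themselves were 28.7% of control and 30.2% of Alk1 ECKO endothelial cells. Of non-endothelial cells, defined as those under 200 CPM of the endothelial genes, 0.191% in control and 0.303% in Alk1 ECKO reached the threshold. With no mitochondrial minimum the tip cell shares were 4.60% and 40.2%. Bead enrichment can shift the yield of cell types, and its part in the shares was not tested.

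**Figure D1:**
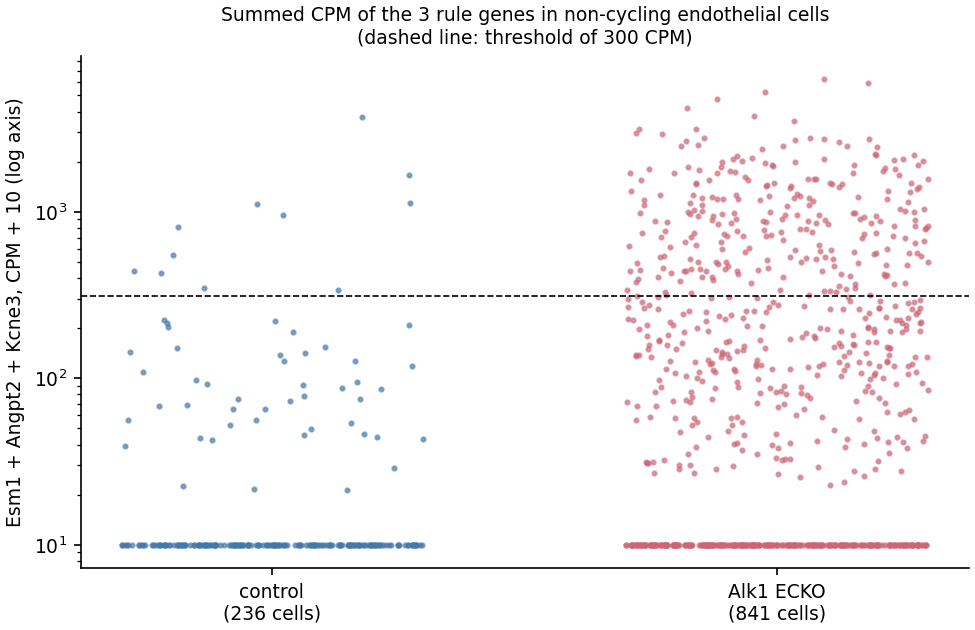
Each point is 1 non-cycling endothelial cell (236 control, 841 Alk1 ECKO), placed by the summed level of Esm1, Angpt2 and Kcne3 in CPM plus 10 on a log axis, and the dashed line marks 300 CPM. Cells with no such UMI lie on the lowest line, and 11 control and 258 Alk1 ECKO cells lie on or above the threshold.

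The threshold did not fall in a gap of the Alk1 ECKO cells. The 3 cells just inside it held 304, 306 and 306 CPM of the rule genes and the 3 just outside held 296, 298 and 299 CPM. In control the nearest cells inside held 330, 339 and 418 CPM and the nearest outside 206, 211 and 212 CPM. Between 300 and 450 CPM lay 46 Alk1 ECKO and 4 control tip cells. A single rule UMI was enough in 21 Alk1 ECKO cells and 1 control cell. Most tip cells rested on more than that: UMIs of all 3 genes were found in 165 of 258 Alk1 ECKO (64.0%) and 6 of 11 control tip cells (54.5%).

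The 3 rule genes are known tip cell transcripts. Esm1 (ENSMUSG00000042379, mm10 chromosome 13, 113209659 to 113218098) encodes endocan, a secreted proteoglycan. Angpt2 (ENSMUSG00000031465, chromosome 8, 18690263 to 18741562) encodes a ligand of the receptor TIE2, and Kcne3 (ENSMUSG00000035165, chromosome 7, 100176502 to 100184869) an accessory subunit of potassium channels. Esm1 was found in 10 of 11 control and 229 of 258 Alk1 ECKO tip cells, Kcne3 in 9 and 212, and Angpt2 in 7 and 198. Over the control tip cells Esm1 ranged from 0 to 2165 CPM with a median of 453, and over the Alk1 ECKO tip cells from 0 to 4302 CPM with a median of 361. Angpt2 had a median of 102 CPM over the control cells, with a highest value of 802, and 168 CPM with a highest value of 1563 over the Alk1 ECKO cells. The median of Kcne3 was 278 CPM in control, where it reached 735, and 277 CPM in Alk1 ECKO, where it reached 2160. For all 3 genes the control cells lay within the range of the Alk1 ECKO cells. These levels chose the cells and are given as a description.

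The label was checked with Apln and Adm, tip cell markers that the rule did not use. Apln (ENSMUSG00000037010, chromosome X, 48025146 to 48034853) encodes apelin, the ligand of the receptor APLNR. Adm (ENSMUSG00000030790, chromosome 7, 110627661 to 110629820) encodes adrenomedullin, a vasoactive peptide that signals through CALCRL with a RAMP partner. Apln was found in 8 of 11 control and 210 of 258 Alk1 ECKO tip cells, and its median over cells was 259 CPM in control, in a range of 0 to 1978, and 473 CPM in Alk1 ECKO, in a range of 0 to 2169. The median of Adm was 136 CPM over the control cells (range 0 to 348) and 196 CPM over the Alk1 ECKO cells (range 0 to 1755). In the other non-cycling endothelial cells the median over cells was 0 for both genes in control, and 88.1 CPM for Apln and 0 for Adm in Alk1 ECKO. Both markers thus went with the label in each library, with overlapping ranges of single cells.

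**Figure D2:**
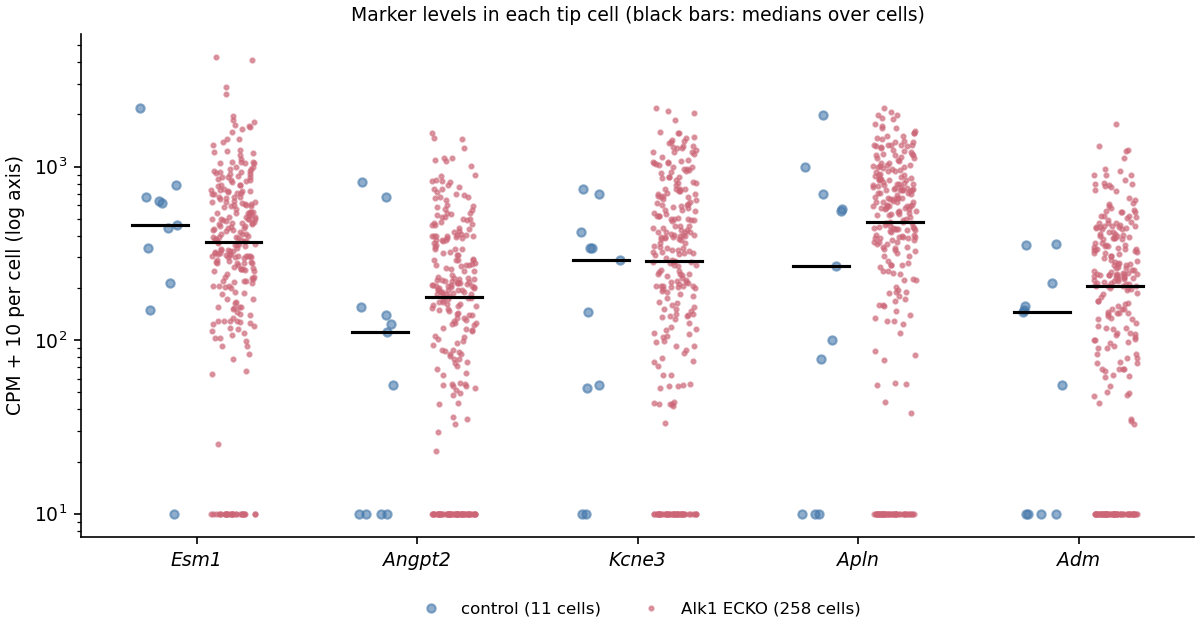
Levels of Esm1, Angpt2, Kcne3, Apln and Adm in each tip cell, in CPM plus 10 on a log axis, for the 11 control and 258 Alk1 ECKO cells. Bars mark medians over cells; the control cells lie inside the spread of the Alk1 ECKO cells for each gene.

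To compare shares of cells at 1 depth, each cell with at least 5000 UMIs was thinned to 5000 UMIs, which left out 1 control and 50 Alk1 ECKO tip cells. In Alk1 ECKO an Apln UMI was then held by 79.8% of tip cells (166 of 208), 47.2% of other non-cycling endothelial cells (214 of 453) and 1.45% of non-endothelial cells (6 of 413). An Adm UMI was held by 59.6%, 23.4% and 1.21% of the same cells. Without thinning, 81.4% and 76.7% of Alk1 ECKO tip cells held an Apln and an Adm UMI. Median depths before thinning were 29379.5 UMIs in tip, 21269 in other endothelial and 9666 in non-endothelial cells. In control, 6 of 10 thinned tip cells held Apln and 4 held Adm, against 16.2% and 5.24% of 210 other endothelial cells and 0.460% and 0.506% of 2175 non-endothelial cells, with median depths of 20848, 15367.5 and 7444 UMIs. The shares in endothelial cells lay above the non-endothelial background in both libraries.

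The next description set tip cells against the other non-cycling endothelial cells of the same library, with the UMIs of each class summed and expressed as CPM. A gene counted as measured with a mean of at least 20 CPM over both classes and at least 50 UMIs in all, and as higher or lower from 1.5-fold. In Alk1 ECKO 343 of 5651 measured genes were higher (6.07%) and 324 lower (5.73%), and in control 1114 of 6111 were higher (18.2%) and 1370 lower (22.4%). The control counts rest on 11 cells. Of 5434 genes measured in both libraries 262 were higher in both (4.82%) and 259 lower in both (4.77%), and without the deepest control tip cell 219 and 241. The rule split these cells by 3 transcripts of the same matrix, so the values below describe the cells and test nothing.

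Apart from the rule genes, the gene set highest in tip cells of both libraries included an actin regulator and a receptor of the endoplasmic reticulum. Coro1a, which encodes the actin-binding coronin 1A, was at 99.4 CPM in tip cells and 14.2 CPM in other endothelial cells of Alk1 ECKO (log2 ratio 2.80, 2.58 to 3.03), and at 194 and 6.82 CPM in control (4.83, 4.18 to 5.50). Kdelr3, a receptor that returns proteins to the endoplasmic reticulum, had log2 ratios of 2.29 in Alk1 ECKO and 3.33 in control, or 2.66 in control without the deepest tip cell. Slc16a6 of the monocarboxylate transporter family was at 95.8 and 20.5 CPM in Alk1 ECKO and 95.1 and 14.4 CPM in control. Ednrb, the endothelin B receptor, had ratios of 2.13 and 3.86, the latter 1.52 without the deepest control tip cell.

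The other leading genes took in further cytoskeletal and secreted products. Rnd3, an atypical small GTPase that loosens actin stress fibres, was at 43.0 and 10.3 CPM in Alk1 ECKO and at 45.5 and 10.2 CPM in control, where only 2 of 11 tip cells held it. The actin-associated Pdlim1 had log2 ratios of 1.99 and 2.80, the calcium-binding S100a6 2.05 and 2.26, and the lipase gene Mgll 1.79 and 2.37. Adm was at 258 and 65.8 CPM in Alk1 ECKO (1.97, 1.86 to 2.08) and at 169 and 16.3 CPM in control (3.38, 2.81 to 3.93). The secreted protease gene Prss23 had ratios of 1.87 and 3.09. Igfbp3, a secreted carrier of insulin-like growth factors, was at 955 and 268 CPM in Alk1 ECKO (1.83, 1.78 to 1.89) and at 670 and 101 CPM in control (2.72, 2.46 to 2.98). A single cell held 79.6% of the control tip cell UMIs of Igfbp3, and without it the control ratio was 0.96. Without the same cell the control ratios of Rnd3, Pdlim1, Mgll and Adm came to 1.23, 1.52, 1.68 and 2.46.

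The lowest genes of tip cells included transporters and matrix proteins. Mfap2, a microfibril protein, was at 12.7 CPM in tip and 77.8 CPM in other endothelial cells of Alk1 ECKO (log2 ratio -2.61, -2.91 to -2.33). In control it had 0 UMIs in tip cells and 96.9 CPM in the others, and a count of 3 over the control tip cells would be 12.4 CPM, which puts its ratio at -2.97 or lower. The proteoglycan gene Spock2 was at 46.3 against 284 CPM in Alk1 ECKO (-2.62, -2.77 to -2.47) and at 78.5 against 1003 CPM in control (-3.68, -4.41 to -3.03). The glutamine transporter gene Slc38a5 had ratios of -2.30 in Alk1 ECKO and -3.72 in control, the lipid transfer protein gene Pltp -2.32 and -2.92, and Cxcl12, the ligand of CXCR4, -2.50 and -2.10. The 8 control UMIs of Cxcl12 came from 1 cell. Fam181b and Ltbp4, a binding protein of latent TGF-beta, were at -2.64 and -2.38 in Alk1 ECKO and rest on 2 UMIs each in control tip cells, at -2.60 (-5.65 to -0.73) and -2.65 (-5.70 to -0.78).

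Other genes known from tip cells were higher as a group. Of 29 measured members of a list that left out the rule genes, 16 were higher and 0 lower in Alk1 ECKO, with a median log2 ratio of 0.90 against -0.02 over all measured genes. In control 19 of 29 were higher and 0 lower (median 0.89). The shares over all measured genes were 6.07% higher and 5.73% lower in Alk1 ECKO, and 18.2% and 22.4% in control. The list was chosen with earlier results of these data known and holds Apln and Adm, so it is no second check of the label. The highest in Alk1 ECKO were Adm, Igfbp3 and Plaur, the urokinase receptor (66.8 against 22.2 CPM, 1.59, 1.39 to 1.79). In control Apln led with 893 against 56.0 CPM (3.99), but 68.5% of its tip cell UMIs came from 1 cell. The control ratio of Apln without that cell was not computed. In Alk1 ECKO Apln was at 670 against 234 CPM (1.52, 1.46 to 1.58). The lowest member in both libraries was Col18a1, the collagen that gives rise to endostatin, at -0.07 and -0.50.

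Receptor genes for apelin, adrenomedullin and ANGPT2 had negative log2 ratios in tip cells of both libraries, not all of them by 1.5-fold. Aplnr, the apelin receptor, was at 98.5 CPM in tip and 150 CPM in other endothelial cells of Alk1 ECKO (log2 ratio -0.61, -0.72 to -0.49) and at 78.5 and 221 CPM in control (-1.49, -2.23 to -0.84). The adrenomedullin receptor gene Calcrl had ratios of -0.35 and -1.25 and its partner Ramp2 -0.65 and -0.80. Ramp2, like Kdr below, is 1 of the 8 endothelial genes of the rule. Tek, which encodes the ANGPT2 receptor TIE2, was at 32.2 against 80.0 CPM in Alk1 ECKO (-1.31, -1.51 to -1.12) and 70.3 against 200.3 CPM in control (-1.51, -2.30 to -0.83), and Ptprb, a phosphatase that acts on TIE2, had ratios of -0.85 and -1.55. Of the VEGF receptors, Nrp1 was higher (0.90 and 0.76), Flt4 was at 0.58 and 0.33, and Kdr at 0.04 and -0.47.

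Guidance genes split. Robo1, a SLIT receptor, was at 43.8 against 18.4 CPM in Alk1 ECKO (log2 ratio 1.25) and at 0.66 in control, and the chemokine receptor gene Cxcr4 at 106 against 46.3 CPM (1.19, 1.05 to 1.34) and 1.71. Ephb4, the venous ephrin receptor, was at -1.07 in Alk1 ECKO and -0.41 (-1.33 to 0.39) in control, and Sema6a at -0.95 and -2.21. Over the guidance list 4 of 15 measured members were higher and 3 lower in Alk1 ECKO, and 5 of 16 each way in control, or 3 and 4 of 14 without the deepest control tip cell. Of 12 Notch genes 0 were higher and 0 lower in Alk1 ECKO, with Dll4 at 0.57 (0.45 to 0.69), Jag1 at -0.48 and the Notch target Hes1 at -0.47. In control 2 were higher and 2 lower, or 0 and 3 without the deepest control tip cell. Of all measured genes 6.07% were higher and 5.73% lower in Alk1 ECKO, and 18.2% and 22.4% in control.

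Matrix and cytoskeletal genes were partly higher. The shares over all measured genes were 6.07% higher and 5.73% lower in Alk1 ECKO, and 18.2% and 22.4% in control. In the basement membrane list 4 of 15 members were higher and 1 lower in Alk1 ECKO (median log2 ratio 0.45), and 8 and 1 in control (median 0.60). Nidogen 2 (Nid2) was at 207 against 91.2 CPM in Alk1 ECKO (1.18), Col15a1 at 266 against 128 CPM (1.06) and the laminin chain gene Lamb1 at 440 against 219 CPM (1.01), and the member lower in both was Agrn, which encodes agrin (-0.69 and -1.53). Of the integrins, Itga4 was at 274 against 102 CPM in Alk1 ECKO (1.43, 1.33 to 1.52) and 1.44 in control. The cytoskeleton list had 5 of 20 members higher and 1 lower in Alk1 ECKO and 9 and 1 in control, with the actin-binding Cotl1 (1.13 and 1.79) and the tubulin gene Tubb6 (1.12 and 1.86) higher and Ezr, which encodes the membrane linker ezrin, lower (-0.67 and -1.15).

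Glycolysis genes were higher in tip cells of both libraries. Of 12 members measured in Alk1 ECKO 10 were higher and 0 lower, with a median log2 ratio of 0.76, and in control 9 of 13 and 0 (median 0.70). Without the deepest control tip cell 5 of 13 were higher in control. The shares higher over all measured genes were 6.07% in Alk1 ECKO and 18.2% in control. Pgk1, phosphoglycerate kinase, was at 285 against 125 CPM in Alk1 ECKO (1.19, 1.10 to 1.28) and 285 against 112 CPM in control (1.35, 0.97 to 1.71). Tpi1, triosephosphate isomerase, had ratios of 1.14 and 0.93 and Ldha, lactate dehydrogenase A, 1.04 (0.99 to 1.09) and 0.91. Gpi1 (0.46), Hk1 (0.54) and Gapdh (0.63) had the lowest ratios in Alk1 ECKO. The glucose transporter gene Slc2a1, which is not in the list, lay in the other direction, at 360 against 707 CPM in Alk1 ECKO (-0.97) and 244 against 690 CPM in control (-1.50).

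Genes of the hypoxia response lay in both directions. Egln3, a prolyl hydroxylase that marks HIF for degradation and is itself a HIF target, was at 45.0 against 4.45 CPM in Alk1 ECKO (log2 ratio 3.34, 2.96 to 3.74) and at 24.8 against 2.08 CPM in control, from 6 UMIs in 2 tip cells. Ankrd37 was at 241 against 90.5 CPM in Alk1 ECKO (1.41) and 1.15 in control. The HIF target Ddit4 (-1.33 and -1.45) and Epas1, which encodes HIF-2 alpha (-0.43 and -1.18), had negative ratios. Of all measured genes 6.07% were higher and 5.73% lower in Alk1 ECKO, and 18.2% and 22.4% in control. Over the list 5 of 15 genes were higher and 2 lower in Alk1 ECKO (median 0.16), and 4 of 14 higher and 6 lower in control (median -0.17). Without the deepest control tip cell 1 of 13 was higher and 6 lower in control (median -0.55).

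The promoters of Pgk1, Ldha and Egln3 are shown as examples of windows with the letters searched for, picked after the search. Those of Esm1, a gene of the rule, and of the markers Apln and Adm are shown as windows without a match. The window of the rule gene Kcne3 that has a match is not printed. Each window holds the 250 bases before the gene's first listed start in RefSeq (build GRCm38.p6), written 5′ to 3′ on the gene's strand. Capitals mark the letters ACGTG, a form of the core of the hypoxia response element, or CACGT, the same letters on the other strand. The form GCGTG was not searched for. The Esm1 and Adm windows hold it, on either strand, so a window without a match can still hold a core. Where both overlap the run reads CACGTG.
Pgk1 (chrX:106186850-106187099, + strand): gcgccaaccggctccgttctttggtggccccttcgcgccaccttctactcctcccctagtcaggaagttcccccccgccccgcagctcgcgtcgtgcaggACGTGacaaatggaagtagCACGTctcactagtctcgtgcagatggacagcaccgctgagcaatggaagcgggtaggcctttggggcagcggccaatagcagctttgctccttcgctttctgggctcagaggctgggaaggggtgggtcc
Ldha (chr7:46845554-46845803, + strand): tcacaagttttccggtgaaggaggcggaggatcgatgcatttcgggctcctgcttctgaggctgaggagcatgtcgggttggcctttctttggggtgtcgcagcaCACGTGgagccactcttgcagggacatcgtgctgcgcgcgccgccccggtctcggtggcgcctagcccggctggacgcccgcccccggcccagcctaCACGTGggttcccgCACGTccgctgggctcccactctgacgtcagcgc
Egln3 (chr12:54203875-54204124, - strand): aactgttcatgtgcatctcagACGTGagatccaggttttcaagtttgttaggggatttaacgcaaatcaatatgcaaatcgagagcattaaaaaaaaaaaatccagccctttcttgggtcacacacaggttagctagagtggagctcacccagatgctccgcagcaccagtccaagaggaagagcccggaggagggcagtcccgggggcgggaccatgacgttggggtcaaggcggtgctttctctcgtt
Esm1 (chr13:113209409-113209658, + strand): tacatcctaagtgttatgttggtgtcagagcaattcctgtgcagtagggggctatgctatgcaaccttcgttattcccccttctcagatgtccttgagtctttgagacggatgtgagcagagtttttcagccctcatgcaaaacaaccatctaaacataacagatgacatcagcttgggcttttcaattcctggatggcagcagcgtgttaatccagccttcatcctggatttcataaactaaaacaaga
Apln (chrX:48034854-48035103, - strand): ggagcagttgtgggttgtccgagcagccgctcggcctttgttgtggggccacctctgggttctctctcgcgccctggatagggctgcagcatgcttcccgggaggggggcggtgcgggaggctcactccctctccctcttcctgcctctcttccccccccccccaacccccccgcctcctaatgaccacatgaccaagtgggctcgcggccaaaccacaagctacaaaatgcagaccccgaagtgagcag
Adm (chr7:110627407-110627656, + strand): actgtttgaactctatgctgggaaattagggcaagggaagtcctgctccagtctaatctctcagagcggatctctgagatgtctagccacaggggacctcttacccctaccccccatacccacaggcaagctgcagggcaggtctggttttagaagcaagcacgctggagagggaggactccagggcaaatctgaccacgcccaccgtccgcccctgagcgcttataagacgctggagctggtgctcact
The ACGTG form was found at 2 places in the Pgk1 window, with first bases 150 and 131 bases before the start. It was found at 3 places in the Ldha window (145, 48 and 34) and at 1 place in the Egln3 window (229). No match to ACGTG was found in the Esm1, Apln and Adm windows, nor in those of Tpi1, Igfbp3 and the second listed start of Ldha. Kcne3 has 2 listed starts, 1 of them with a match 140 bases before it, and the table of promoters used here has no entry for Angpt2. The ACGTG form occurs in 16.6% of 27025 windows of the same length and in 1 of the 4 tip cell markers with an entry (25%), Kcne3. It occurs in 6 of 15 of the glycolysis list (40%) and in 7 of the 23 barrier genes with an entry (30.4%). A match describes letters only, and binding was not measured.

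Transporters and barrier genes, which mature capillaries use to control exchange with the retina, were lower in tip cells. The shares lower over all measured genes were 5.73% in Alk1 ECKO and 22.4% in control. Of 19 measured members of the list, 16 were lower and 0 higher in Alk1 ECKO (median log2 ratio -1.23), and 19 of 22 lower and 0 higher in control (median -1.53). Beside Spock2 and Slc38a5, the lowest in Alk1 ECKO was the organic anion transporter gene Slco1a4 (9.62 against 31.6 CPM, -1.71). Mfsd2a, a lipid transporter that restrains vesicular transport across the barrier, was at 43.5 against 140 CPM in Alk1 ECKO (-1.69, -1.85 to -1.53) and 116 against 325 CPM in control (-1.49, -2.08 to -0.95). Of the junction list 3 of 14 measured members were lower and 0 higher in Alk1 ECKO (median -0.12), and 6 and 0 in control (median -0.29). The tight junction gene Ocln, which encodes occludin, was at -1.62 and -1.76 and the claudin gene Cldn5, a gene of the rule, at -0.89 and -0.60. Slc38a3 (-0.19) and Tjp1 (-0.45) were nearest to the other cells in Alk1 ECKO.

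Wnt and norrin genes followed in part, where 5.73% of all measured genes were lower in Alk1 ECKO and 22.4% in control. Of 15 members measured in Alk1 ECKO 7 were lower and 1 higher (median log2 ratio -0.48), and in control 13 of 18 and 1 (median -1.07). The Wnt inhibitor gene Apcdd1 was at 58.7 against 182 CPM in Alk1 ECKO (-1.63, -1.77 to -1.50) and 74.4 against 343 CPM in control (-2.20). The member higher in both libraries was the norrin receptor gene Fzd4 (0.62 and 0.70).

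**Figure D3:**
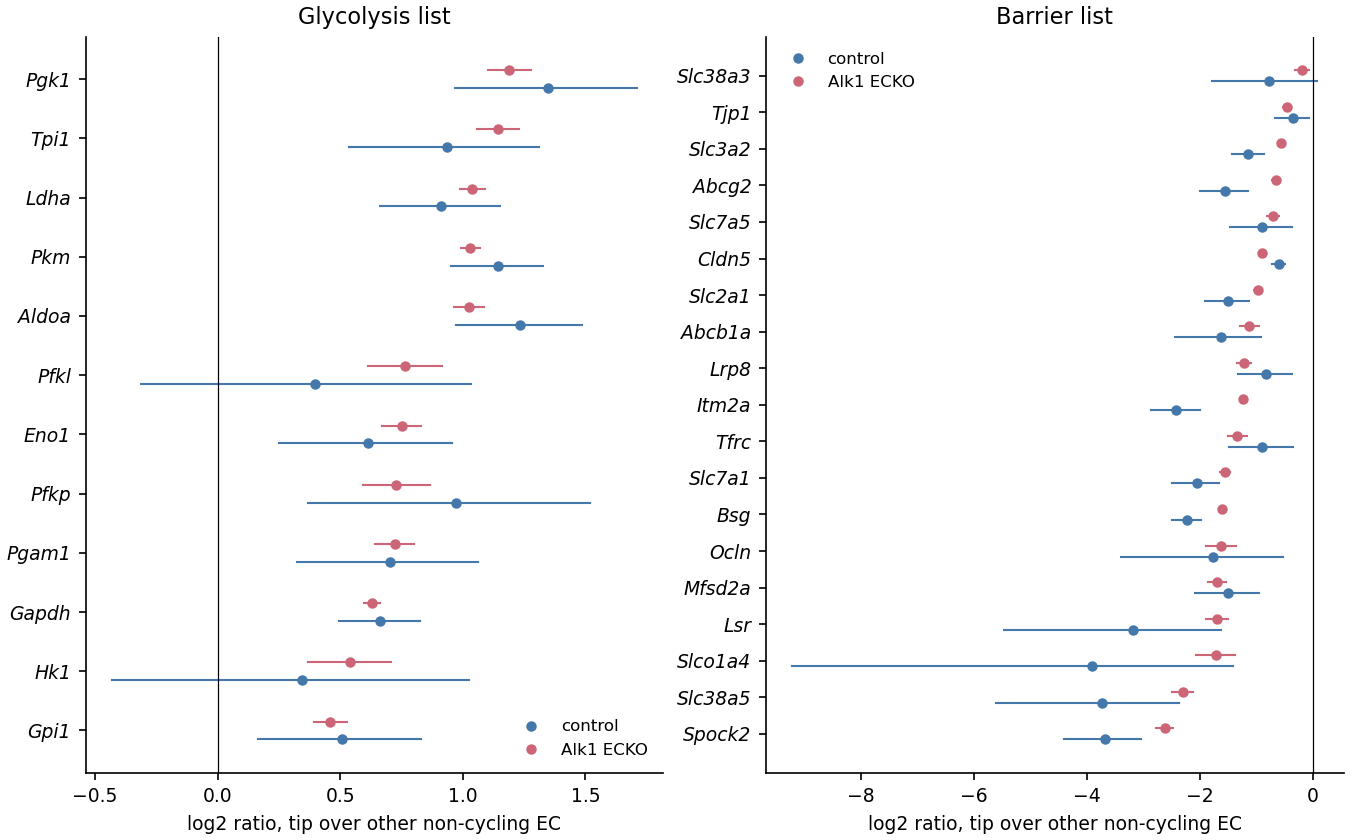
Log2 ratio of tip over other non-cycling endothelial cells for the members of the glycolysis and barrier lists measured in Alk1 ECKO, in Alk1 ECKO (red) and control (blue), with 95% counting intervals. All 12 glycolysis genes shown lie above 0 and all 19 barrier genes below 0 in Alk1 ECKO, with wider intervals in control.

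Arterial and flow genes were lower in part, and venous genes did not share a direction. Of 12 measured arterial genes 7 were lower and 1 higher in Alk1 ECKO (median log2 ratio -0.87), among them Cxcl12, Mgp, an inhibitor of BMP signalling (18.0 against 75.2 CPM, -2.06), and Stmn2 (-2.04), which is also a neuronal gene, while Nrp1 was the member that was higher. Of 10 measured venous genes 5 were lower and 2 higher in Alk1 ECKO (median -0.31), and of 11 in control 4 and 2 (median 0.11). Without the deepest control tip cell 4 of 10 were lower and 1 higher in control (median -0.09). The venous Nr2f2, which specifies venous identity, was at -1.23 in Alk1 ECKO and -2.89 in control, from 2 UMIs, and Vwf at 0.71 and 0.87. Flow genes had 2 of 7 members lower and 0 higher in Alk1 ECKO (median -0.47), and 3 and 1 in control, or 5 and 1 without the deepest control tip cell. Those lower in Alk1 ECKO were Klf2 and Klf4, transcription factors induced by laminar flow, at 224 against 669 CPM (-1.58, -1.65 to -1.51) and 59.1 against 184 CPM (-1.64) in Alk1 ECKO, and at -1.28 and -2.75 in control. Fenestration and vesicle genes had 4 of 11 members higher and 1 lower in Alk1 ECKO (median 0.38), with the diaphragm gene Plvap at 0.65. In control 6 were higher and 0 lower, or 5 and 1 without the deepest control tip cell. The shares over all measured genes were 6.07% higher and 5.73% lower in Alk1 ECKO, and 18.2% and 22.4% in control.

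Components of the ALK1 pathway were not set apart by the 1.5-fold size in Alk1 ECKO. Of all measured genes 6.07% were higher and 5.73% lower there, and 18.2% and 22.4% in control, so counts of few members say little. Of 8 measured receptor and transducer genes 0 were higher and 0 lower in Alk1 ECKO, with a median log2 ratio of -0.20. In control 2 of 10 were higher and 5 lower (median -0.50), or 1 and 4 without the deepest tip cell. Acvrl1 was at 103 CPM in tip and 142 CPM in other endothelial cells of Alk1 ECKO (-0.47, -0.59 to -0.36) and at 74.4 and 137 CPM in control (-0.88, -1.64 to -0.21). Of its direct targets Id2 was lower in Alk1 ECKO (22.1 against 43.4 CPM, -0.97), and Id1 (-0.43), Id3 (-0.18) and the inhibitory Smad7 (-0.35) lay nearer to 0. In control 4 of 7 targets were lower, with Id1 at 116 against 328 CPM (-1.50).

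Among mechanosensitive channels, the potassium channel gene Kcnj2 was at 80.9 against 35.3 CPM in Alk1 ECKO and 116 against 41.8 CPM in control (log2 ratio 1.47), and Piezo2 at 173 against 94.8 CPM (0.87, 0.76 to 0.97) and 0.92. Piezo1 was at 43.1 CPM in tip and 54.3 CPM in other endothelial cells of Alk1 ECKO (-0.33, -0.51 to -0.15) and at 49.6 and 62.7 CPM in control (-0.34, -1.30 to 0.49). After thinning, 15.4% of Alk1 ECKO tip cells (32 of 208, 10.8 to 21.0) and 24.1% of other endothelial cells (109 of 453, 20.2 to 28.3) held a Piezo1 UMI, against 2.66% of non-endothelial cells.

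The same genes were followed across 5 bins of the rule value in Alk1 ECKO cells with at least 5000 UMIs, from 185 cells with no rule UMI to 139 cells with at least 600 CPM. The bins above 0 and below 600 CPM held 185, 83 and 69 cells. Apln was at 155, 224, 368, 428 and 776 CPM from the lowest to the highest bin, and Adm at 32.4, 56.7, 131, 180 and 292 CPM. The summed glycolysis list went from 2944 to 6987 CPM and the summed barrier list from 12718 to 4167 CPM, each in 1 direction through all 5 bins. Spock2 was at 354, 303, 146, 104 and 18.8 CPM, and Mfsd2a at 163, 155, 71.3, 70.9 and 31.2 CPM. The values changed by steps through the bins rather than at the 300 CPM threshold alone, as Mfsd2a just below and just above it shows. Median depth was 14498 UMIs in the lowest bin and 23414 to 34537 UMIs in the others, and the part of depth in these values was not tested. Control bins from 150 CPM held 5, 4 and 6 cells and are not read here.

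**Figure D4:**
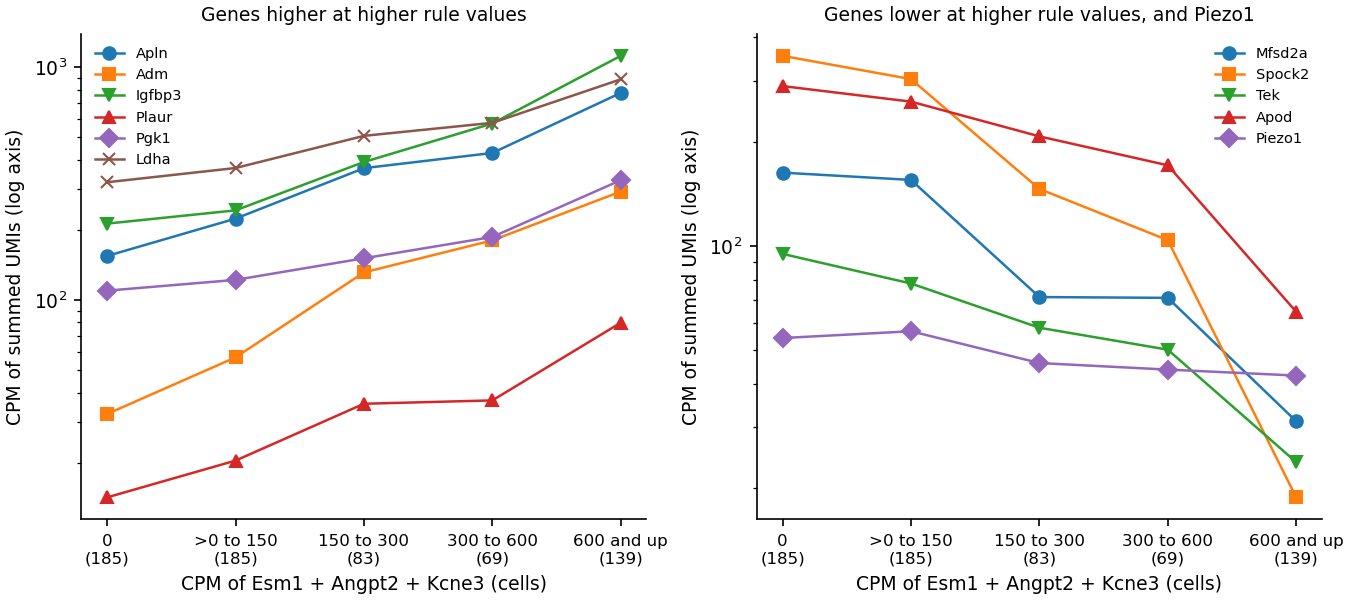
CPM of summed UMIs on log axes in Alk1 ECKO non-cycling endothelial cells with at least 5000 UMIs, in 5 bins of summed Esm1, Angpt2 and Kcne3 (cells per bin in brackets). Apln, Adm, Igfbp3, Plaur, Pgk1 and Ldha were higher in each higher bin, Mfsd2a, Spock2, Tek and Apod lower, and Piezo1 lay between 42.3 and 56.8 CPM.

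Cycling endothelial cells, which the rule did not keep, were split by the rule genes at the same threshold. The genes given for them were chosen after their values were seen. The values thus describe these cells and are no independent check of the label. In Alk1 ECKO the 117 cycling cells from 300 CPM of the rule genes were set against the other 247 cycling cells. The log2 ratio was 1.17 for Apln, 1.91 for Adm, 1.21 for Igfbp3 and 2.31 for Coro1a, and -2.46 for Spock2, -1.60 for Mfsd2a and -0.86 for Tek. Pgk1 (0.66) and Ldha (0.64) had the same direction with smaller ratios than in non-cycling cells, a difference that was not tested.

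The second comparison set Alk1 ECKO tip cells against control tip cells. Of 5713 measured genes 551 were higher (9.64%) and 1063 lower (18.6%) by 1.5-fold, with a median log2 ratio of -0.11. With 11 control cells, the interval lay beyond 1.5-fold for 99 of 5414 genes that could be named, 22 higher and 77 lower. In the other non-cycling endothelial cells 3.85% of measured genes were higher and 14% lower in Alk1 ECKO.

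In summed counts the tip cell markers were not uniformly higher within Alk1 ECKO tip cells. Esm1 was at 496 CPM in Alk1 ECKO and 1025 CPM in control (log2 ratio -1.05, -1.23 to -0.86), but 65.3% of its control UMIs came from 1 cell, and without that cell the ratio was -0.05. The same cell moved Angpt2 from -0.47 to 0.61, Kcne3 from 0.11 to 0.87, Apln from -0.41 to 0.72 and Adm from 0.61 to 1.52. In the other non-cycling endothelial cells, below the threshold by construction for the rule genes, the ratios were 2.23 for Esm1, 2.49 for Angpt2, 1.17 for Kcne3, 2.06 for Apln (234 against 56.0 CPM) and 2.01 for Adm (65.8 against 16.3 CPM). Of 30 other tip cell genes 2 were higher and 5 lower in Alk1 ECKO tip cells (median -0.18), and without the deepest control cell 7 and 2 of 29. The shares over all measured genes were 9.64% higher and 18.6% lower.

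Acvrl1, the gene targeted in the knockout, was at 103 CPM in Alk1 ECKO and 74.4 CPM in control tip cells (log2 ratio 0.46, -0.21 to 1.22), an interval that includes 0, and was found in 197 of 258 and 8 of 11 cells. The kit counts the 3′ ends of transcripts, and a tag outside the removed exons is no check of the knockout. Piezo1 was at 43.1 against 49.6 CPM (-0.20, -1.03 to 0.76), from 12 control UMIs in 4 cells, and at 0.26 without the deepest control cell. No difference of Piezo1 RNA between the tip cells of the libraries was detectable at this depth. Cdh5, whose promoter drives the recombinase, was at 633 against 947 CPM (-0.58, -0.77 to -0.38). It is also 1 of the 8 endothelial genes whose sum chose the cells.

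The highest named ratios rested on few control UMIs. Myl9, a regulatory light chain of myosin, was at 104 CPM in 127 of 258 Alk1 ECKO tip cells and at 4.13 CPM in control, from 1 UMI (log2 ratio 4.65, 2.17 to 9.95), and it was higher in the other endothelial cells too (3.72). Myl9 is also a mural gene, and mural markers summed to 84.3 CPM in Alk1 ECKO and 12.4 CPM in control tip cells, a difference whose part in the Myl9 ratio was not tested. The single control UMI of Ppp1r10 (3.42), of the triglyceride lipase gene Pnpla2 (3.31), of Errfi1, an inhibitor of EGF receptors (3.28), and of the mitochondrial gene Apool (3.18) gave intervals that start at 0.93, 0.82, 0.79 and 0.70. In other endothelial cells the same 4 genes were at 0.08, 0.15, 0.07 and 0.29. Prrg2 (2.50, 0.63 to 5.55) and the small GTPase gene Rap2a (2.14, 0.59 to 4.43) had 2 and 3 control UMIs, and Rap2a was at 3.19 without the deepest control cell.

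The other named genes that were higher had 5 to 21 control UMIs. Gja4, which encodes connexin 37 of arterial endothelium, was at 148 against 37.2 CPM (log2 ratio 1.99, 1.06 to 3.12), and at 0.11 in other endothelial cells. Apod, apolipoprotein D, was at 96.8 against 20.7 CPM (2.23), Fos at 260.0 against 86.8 CPM (1.58, 0.97 to 2.28), Atf3 at 135 against 45.5 CPM (1.57, 0.72 to 2.58) and Ccn2, a matricellular protein, at 130 against 45.5 CPM (1.52, 0.67 to 2.53). In the other endothelial cells Apod was at 1.31, Fos at 1.66, Atf3 at 1.23 and Ccn2 at 0.79, and in non-endothelial cells Fos was at 3.26 and Atf3 at 3.59. Without the deepest control cell the tip cell ratios were 1.46 for Gja4, 1.69 for Apod, 1.27 for Fos, 1.33 for Atf3 and 2.45 for Ccn2.

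Among the lowest named ratios was a transporter. Slco1c1, the thyroid hormone transporter of barrier endothelium, was at 8.02 CPM in Alk1 ECKO and 112 CPM in control tip cells (log2 ratio -3.80, -4.46 to -3.10), held by 32 of 258 and 4 of 11 cells, and at -4.33 without the deepest control cell. In other endothelial cells its ratio was -2.55. Eif3j2 (-3.09) has a close relative in the genome, so its counts are uncertain, and its ratio was -2.10 without the deepest control cell. Clspn, an adaptor of the replication checkpoint, had all 12 control UMIs in 1 cell, and 90.9% of the control UMIs of Slfn9 came from 1 cell. The semaphorin receptor gene Plxnb1 was at 8.59 against 41.3 CPM (-2.27, -3.22 to -1.15) in 6 control cells, Tacc2 at -2.49 and Ly75, an endocytic receptor, at -2.25. Arhgap21 (-2.22), Ints7 (-2.22), Mtm1 (-2.21), Uhrf1 (-2.11) and Golph3l (-2.06) had 8 to 16 control UMIs each. Without the deepest control cell Arhgap21 was at -1.56, Ints7 at -1.34, Mtm1 at -1.58 and Uhrf1 at -1.18.

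**Figure D5:**
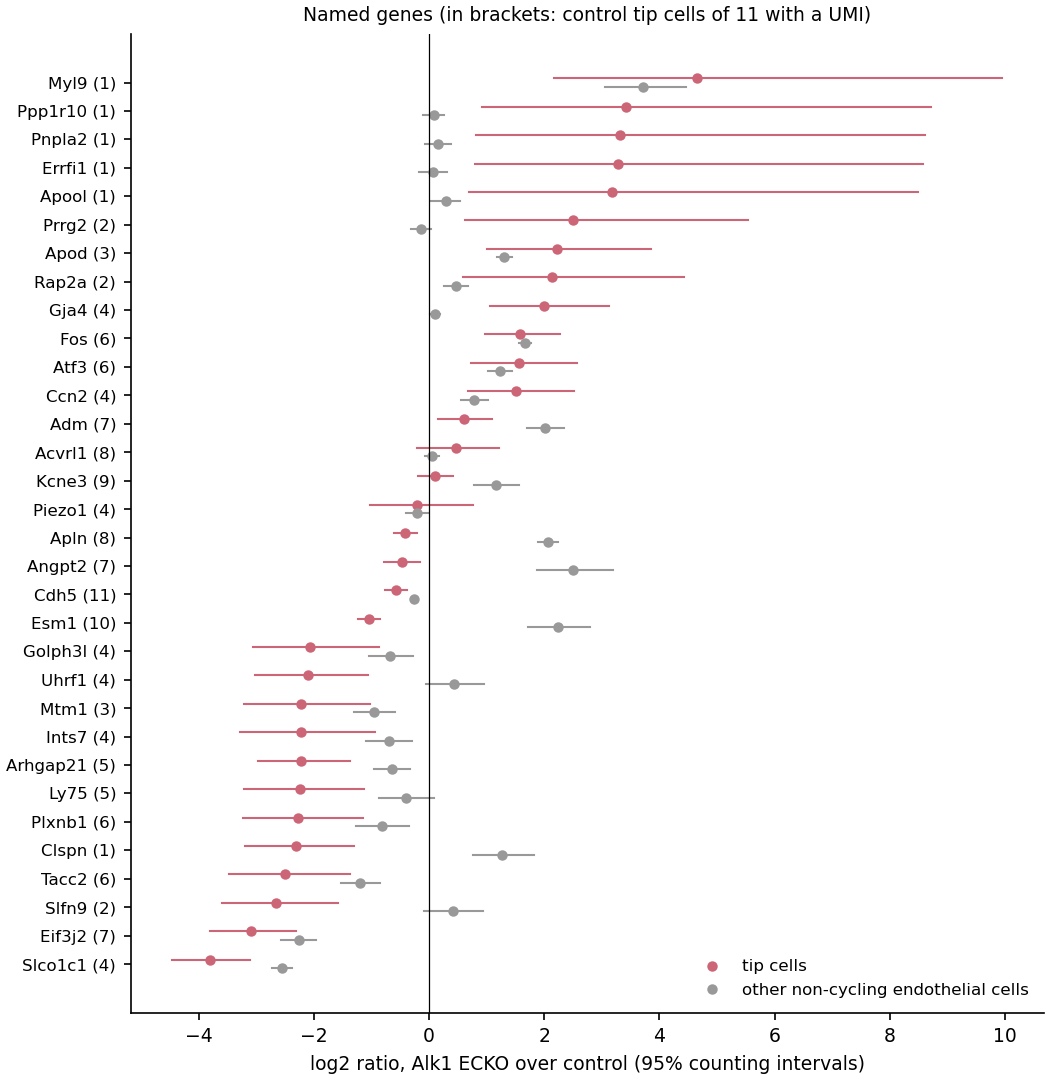
Log2 ratio of Alk1 ECKO over control with 95% counting intervals for the named genes in tip cells (red) and in other non-cycling endothelial cells (grey); the number of the 11 control tip cells with a UMI is in brackets. Intervals in tip cells are wide, and Esm1, Angpt2 and Apln lie below 0 in tip cells and above 0 in the other cells. Without the deepest control tip cell their tip cell ratios were -0.05, 0.61 and 0.72. The rule sets an upper limit on Esm1 and Angpt2 in the other cells.

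By list, the barrier genes had 10 of 20 measured members lower and 5 higher in Alk1 ECKO tip cells (median log2 ratio -0.60). Without the deepest control cell 9 were lower and 3 higher. Over all measured genes 18.6% were lower and 9.64% higher. In the other non-cycling endothelial cells 13 of 24 barrier genes were lower and 0 higher in Alk1 ECKO (median -0.65), so the shift was not particular to tip cells. There 14% of all measured genes were lower and 3.85% higher. In tip cells Mfsd2a was at 43.5 against 116 CPM (-1.41, -1.97 to -0.80), the transferrin receptor gene Tfrc at -1.48 and Lsr at 1.18. Hypoxia genes had 7 of 15 higher and 1 lower (median 0.56), with Ankrd37 at 241 against 116 CPM (1.06, 0.52 to 1.65), Hilpda at 2.14 from 2 control UMIs, and Ddit4 at -0.94. Glycolysis genes had 0 of 13 higher and 0 lower (median 0.00), and 5 higher without the deepest control cell. In the extracellular lists, Col15a1 was at 266 against 703 CPM (-1.40, -1.63 to -1.17) and the integrin gene Itga2 at -1.53.

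Known targets of ALK1 and SMAD signalling did not share a direction in tip cells. Of 6 measured members 2 were higher and 2 lower (median log2 ratio 0.19, or -0.05 without the deepest control cell). Smad7 was at 75.6 against 24.8 CPM (1.61, 0.48 to 3.06) from 6 control UMIs, and Id1 at 216 against 116 CPM (0.90, 0.36 to 1.49). Id3 was at 351 against 554 CPM (-0.66, -0.91 to -0.40) and Sema3g at -0.64 (-1.59 to 0.51). Receptors and transducers had 0 of 9 higher and 1 lower, Acvr2a (-0.81), against 9.64% higher and 18.6% lower over all measured genes. Without the deepest control cell 1 was higher and 1 lower.

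Immediate early genes, which respond within minutes to stimulation and to tissue dissociation, had 10 of 12 measured members higher and 0 lower in Alk1 ECKO tip cells, and 7 and 0 without the deepest control cell (median log2 ratio 0.69). In other endothelial cells 9 of 12 were higher and 0 lower (median 1.04). Of all measured genes 9.64% were higher and 18.6% lower in tip cells, and 3.85% and 14% in other endothelial cells. The flow genes Klf4 (1.84, 0.47 to 3.72) and Klf2 (0.80, 0.29 to 1.36) were higher in Alk1 ECKO tip cells as well. Genes of cycle arrest had 5 of 7 higher and 0 lower (median 0.69), and 4 of 9 and 1 without the deepest control cell (median 0.55), with Cdkn1a, which encodes p21, at 229.7 against 107 CPM (1.10, 0.54 to 1.71) and the p53 target Phlda3 at 63.1 against 16.5 CPM (1.93, 0.57 to 3.81). Genes of G1/S had 11 of 12 lower and 0 higher (median -0.97), but 2 of 7 lower without the deepest control cell (median -0.31).

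Markers of other cell types were present in tip cells and differed between the libraries. Erythroid markers summed to 1322 CPM in Alk1 ECKO and 70.3 CPM in control tip cells, with 9 of 10 and 2 of 10 markers found, the haemoglobin genes at 0 in control, and 54.2 and 66.8 CPM in the median cell. The highest Alk1 ECKO cell held 65093 CPM. Against other endothelial cells of Alk1 ECKO, 4 of 5 measured erythroid markers were higher in tip cells (median log2 ratio 1.24), where 6.07% of all measured genes were higher. The median cell lay the other way, at 54.2 CPM in tip and 71.5 CPM in other endothelial cells. The highest of those other cells held 103184 CPM. Rod markers summed to 410 and 380 CPM (12 and 7 of 12 found, Nrl and Rcvrn at 0 in control), Müller glia or progenitor markers to 367 and 430 CPM (10 and 5 of 12, Aqp4 and Sfrp2 at 0 in both), and mural markers to 84.3 and 12.4 CPM (11 and 3 of 12, with Myh11 at 0 in both and Kcnj8, Pdgfrb and Notch3 at 0 in control). Microglial markers summed to 59.6 and 28.9 CPM (12 and 2 of 12, Cx3cr1 and P2ry12 at 0 in control), neuronal ones to 20.2 and 28.9 CPM (9 and 3 of 12) and astrocyte ones to 26.0 and 4.13 CPM (8 and 1 of 8, Gfap and Pax2 at 0 in control). Their part in the differences was not tested.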

How the data were processed

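For each library the authors deposited a matrix of raw UMI counts by gene and barcode. Cell Ranger 5.0.1 wrote it, per the file headers. A different version, Cell Ranger 6.1.1, stands in the submitters' processing notes beside FastQC 0.11.9 and the build mm10. The labels' protocols name the 10x Genomics kit for 3′ ends, v3.1. No source used here gives the counting of introns or the barcode filter. The libraries held 54800465 (control) and 62728605 UMIs (Alk1 ECKO), with medians of 3707 and 2564.5 per barcode. Columns of other samples numbered 0.

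Tip cells were chosen by the stated rule. The members, gene lists and named genes were chosen with earlier results of these data known. UMIs were summed per class and library and divided by the class total. A ratio has an exact conditional binomial interval and a share a Clopper-Pearson interval. These intervals, and floors of 3 counts, cover counting error only. Each list's median is its members' median log2 ratio. The ratios were tested on simulated data. No test was made, since each genotype had 1 library. Cells of 1 library share their source and are not replicates.

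The named genes were the 12 highest and 12 lowest between libraries among genes with an interval beyond 1.5-fold, the 12 highest and 8 lowest against other endothelial cells by the smaller of the ratios of both libraries, the 3 highest and lowest of each list, members against a list's median, and Esm1, Angpt2, Kcne3, Apln, Adm, Acvrl1, Piezo1 and Cdh5. Predicted, sex-linked, ribosomal, mitochondrial and haemoglobin genes, markers of other cell types and genes at over 5 times the tip cell level in non-endothelial cells were left out, apart from the lists. Some genes that the rule names are not reported here. The genes of the bins and of the cycling cells were chosen after their values were seen.

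Doublets were kept. Scrublet (scanpy 1.11.5) called 2 control and 11 Alk1 ECKO barcodes by its automatic threshold, too few to have worked, so an alternative left out the highest scores at 0.8% per 1000 cells, 500 and 144 barcodes, among them 0 and 12 tip cells. Other alternatives changed the thresholds, the rule genes, the depth, the scaling and the filter on low values. Positions came from GENCODE vM21 and promoters from RefSeq. Python 3.11.15, numpy 2.4.6, scipy 1.17.1, pandas 2.3.3 and matplotlib 3.10.9 were used.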

Additional observations from a re-analysis of the deposited data

Results flagged for a closer look

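Esm1, Coro1a and Clspn had opposite directions between the libraries inside and outside the tip cells. The log2 ratio of Alk1 ECKO over control was -1.05 for Esm1 in tip cells and 2.23 in other non-cycling endothelial cells, -0.97 and 1.06 for Coro1a, and -2.32 and 1.27 for Clspn. The difference between the classes was not tested, and in the other cells all 3 genes lay under the level at which a gene counted as measured. For Esm1 the rule sets an upper limit on the level in the other cells, and for Clspn all 12 control UMIs came from 1 cell. Without the deepest control tip cell Esm1 was at -0.05 in tip cells.

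Barcodes under 1% mitochondrial UMIs, which the rule leaves out, carried the tip transcripts as well. Among Alk1 ECKO barcodes that passed the other limits of non-cycling endothelial cells, 550 of 1168 reached the threshold of 300 CPM (47.1%), and 0 of 3 in control.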

How the results depend on the processing

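The share of tip cells was higher in Alk1 ECKO under all 12 alternatives run for it, and it followed the threshold. In Alk1 ECKO it was 41.5% from 150 CPM and 21.3% from 600 CPM, 21.8%, 26.4% and 24.1% without Esm1, Angpt2 or Kcne3 in the sum, and 40.2% with no mitochondrial minimum. In control it was 2.12% without Esm1. Between the libraries, 900 genes were higher with the mean of per-cell CPM, 3060 were higher and 2682 lower with no minimum CPM, and 509 were lower in cells thinned to 5000 UMIs. Against other endothelial cells, 88 genes were higher in thinned cells, and 481 were higher and 1211 lower with no minimum CPM. More genes entered the counts with no minimum CPM and fewer UMIs those of thinned cells. Among ratios past 1.5-fold between the libraries, those that reversed were Rap2a (-0.047) and Esm1 (0.39) in thinned cells and Slfn9 (0.27) without the deepest control tip cell, an alternative chosen after seeing the data. Smaller ratios changed sign without that cell for Angpt2 (0.61), Apln (0.72) and Piezo1 (0.26). With the mean of per-cell CPM, control ratios against other endothelial cells reversed for Rnd3 (-0.12) and Ltbp4 (0.056); the cause was not tested. No paired analysis was possible because each genotype had 1 library and no test was made. The 11 control tip cells limit every ratio against control.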

Other observations

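Some lists were described in no comparison above. Heat shock chaperone genes had 1 of 7 measured members higher and 2 lower between the tip cells of the libraries (median log2 ratio -0.19). Over all measured genes 9.64% were higher and 18.6% lower, so these few members do not set the list apart. The small chaperone gene Hspb1 was at 1.55 and the mitochondrial chaperonin gene Hspd1 at -0.98. Among IGF genes, Igf2r was at 0.67 and Insr, the insulin receptor gene, at -0.67 in tip against other endothelial cells of Alk1 ECKO, and at 0.55 and -1.14 in control. Interferon and MHC class II genes had 0 of 5 measured members higher and 3 lower in tip cells of Alk1 ECKO (median -0.83). Over all measured genes 6.07% were higher and 5.73% lower. The GTPase gene Iigp1 was at 14.7 against 29.7 CPM (-1.02, -1.31 to -0.73).

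Detection of the rule genes within Alk1 ECKO tip cells was uneven after thinning. Of 120 cells with an Angpt2 UMI 81.7% held Esm1 and 76.7% Kcne3, against 69.3% and 61.4% of the 88 without. Apod was held by 24.7% of the 146 cells with a Kcne3 UMI and by 45.2% of the 62 without. Since 300 CPM of the sum was required of each cell, these shares depend on the rule and describe only these cells.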
